A study of Mus musculus with 8 samples.

Results

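Notch1, Ihh and Tle3 were examined in H3K27me3 chromatin of jejunal samples, titled as intestinal epithelial cells, after loss of the demethylases Kdm6a and Kdm6b. They encode a Notch receptor, a hedgehog ligand and a Groucho corepressor. In the authors' deposited table of changed regions, 5 regions name 1 of these 3 genes, and 2 further regions lie within 100 kb of a Tle3 region, so that 7 of the 378 listed regions belong to these loci. The regions were chosen by the values of this table, whose FDR put them on the list, so that their changes are given as a description, without a test.

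Trimethylation of histone H3 at lysine 27 (H3K27me3), the mark that Polycomb repressive complex PRC2 lays down, was profiled by chromatin immunoprecipitation and sequencing. The 8 samples came from the jejunum of female mice, 4 labelled Control/WT and 4 labelled Kdm6a/Kdm6b knockout (double knockout, DKO), all at 7 days after ablation. The labels give no strain or age, and they do not say what drives the deletion, which agent was used, or which alleles the controls carry. The table compares the groups and holds no value per sample, so that depth is unknown and no fold change carries an error. The labels do not say that the samples came from separate animals, so the authors' FDR values may reflect technical spread only. Its reference group is not named. The words up and down therefore follow the table, and taking up to mean higher in DKO would follow common usage rather than anything it states. With bulk chromatin, a mark gained in more cells and more of the mark per cell cannot be told apart. Whether the samples are epithelial cells, or come from crypts, could not be checked, since the table holds no expression values.

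Notch receptors are cut when a ligand on a neighbouring cell binds them, and the freed intracellular part joins the DNA-binding protein RBPJ to switch on genes such as Hes1. In intestinal crypts this keeps progenitors proliferating and steers them to the absorptive fate. Indian hedgehog, encoded by Ihh, is secreted by the gut epithelium and read by the mesenchyme beneath it through Ptch1, Smo and the Gli factors. Groucho proteins, called TLE in mammals, have no DNA-binding domain. They are brought to genes by factors such as TCF/LEF, HES and RUNX proteins and repress transcription there. H3K27me3 at a gene's start goes with silencing, and in mammals CpG-rich promoters are its usual sites.

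The sequences before each gene's start are shown because the changed regions differ in whether they include them. They are RefSeq sequences of GRCm38.p6, the same build as the table's mm10, and run 5′ to 3′ on the gene's strand up to the base before the RefSeq gene. CpG dinucleotides are in capitals. The Notch1 sequence is chr2:26503823-26504072 on the minus strand, that of Ihh is chr1:74951673-74951922 on the minus strand, and that of Tle3 is chr9:61372116-61372325 on the plus strand. Tle1, the Groucho paralog whose region changed the other way, is shown for contrast, at chr4:72200990-72201143 on the minus strand.
Notch1: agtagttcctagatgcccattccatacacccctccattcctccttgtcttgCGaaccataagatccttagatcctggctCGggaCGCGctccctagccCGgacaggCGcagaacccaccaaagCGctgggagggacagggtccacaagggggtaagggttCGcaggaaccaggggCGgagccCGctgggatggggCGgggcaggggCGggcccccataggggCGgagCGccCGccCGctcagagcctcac
Ihh: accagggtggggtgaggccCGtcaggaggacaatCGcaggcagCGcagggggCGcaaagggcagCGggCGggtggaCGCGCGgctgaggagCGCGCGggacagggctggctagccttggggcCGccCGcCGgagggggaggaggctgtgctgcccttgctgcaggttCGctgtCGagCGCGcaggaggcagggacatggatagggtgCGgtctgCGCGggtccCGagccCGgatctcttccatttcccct
Tle3: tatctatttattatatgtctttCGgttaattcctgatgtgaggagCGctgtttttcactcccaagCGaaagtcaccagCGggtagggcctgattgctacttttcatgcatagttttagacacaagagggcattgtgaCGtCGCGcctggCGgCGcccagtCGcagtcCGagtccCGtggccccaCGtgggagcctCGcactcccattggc
Tle1: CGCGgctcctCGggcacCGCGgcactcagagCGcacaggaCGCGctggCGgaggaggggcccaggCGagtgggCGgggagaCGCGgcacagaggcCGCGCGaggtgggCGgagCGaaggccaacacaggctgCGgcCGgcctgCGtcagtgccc

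The printed stretches hold 16 CpG in 250 bases at Notch1, 24 in 250 at Ihh, 14 in 210 at Tle3 and 21 in 154 at Tle1. For comparison with other genes, the 250 bases before each annotated transcript start were used, which at Tle3 and Tle1 reach into the gene. Only 210 of the 250 bases at Tle3 and 154 at Tle1 lie before the RefSeq gene. The ratio of observed to expected CpG was 0.588 at Notch1, 0.783 at Ihh, 0.992 at Tle3 and 0.949 at Tle1, against a median of 0.374 over 32841 RefSeq promoters. All 4 windows therefore lay above the median promoter, from percentile 65.2 at Notch1 to percentile 93.9 at Tle3. Tle3 reached this with a GC content of 52.4%, equal to the median of 52.4%, whereas Notch1 had 66.0% and Ihh 72.0%. The 146 promoter windows lying wholly inside up regions had a median ratio of 0.385, near that of all promoters, and the 59 inside down regions had 0.658. The Ihh and Tle3 windows were among those inside up regions and above their median, and the Tle1 window was among those inside down regions and above theirs.

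**Figure D1:**
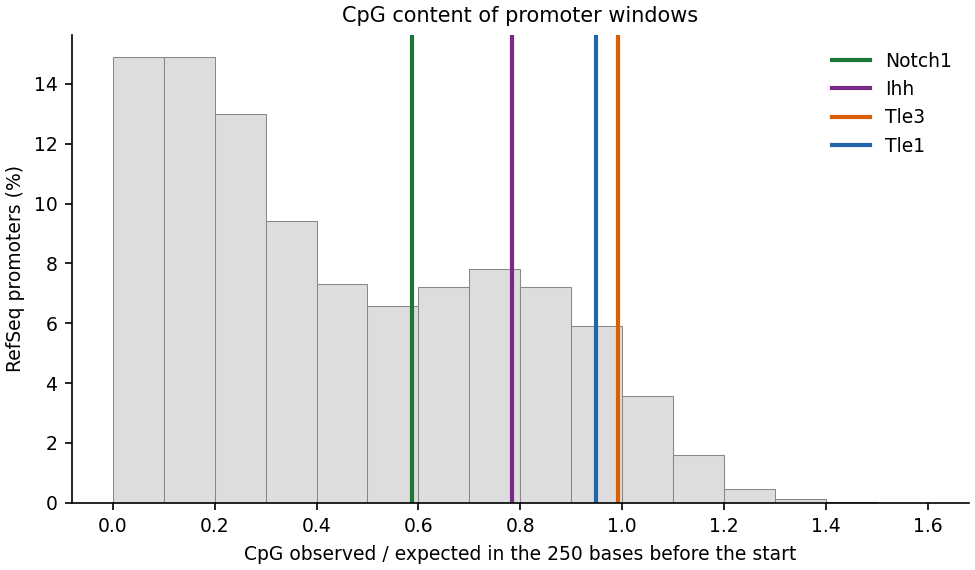
Ratio of observed to expected CpG in the 250 bases before the start of 32841 RefSeq promoters. Grey bars give the percent of promoters in each bin of the ratio, and coloured lines mark Notch1 (0.588), Ihh (0.783), Tle1 (0.949) and Tle3 (0.992), all above the median of 0.374.

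The same windows were searched on both strands for short binding motifs of the pathways' own factors. The RBPJ core TGGGAA, present in 21.6% of all promoter windows, the GLI core GACCACCCA (0.225%) and the TCF/LEF core CTTTGAT (3.21%) had 0 matches at Notch1, Ihh, Tle3 and Tle1. The palindromic E-box CACGTG, found in 6.02% of promoters, had 1 match at Tle3, 68 bases before the annotated transcript start. CACGCG, a class C site of HES-type repressors found in 7.62%, had 1 match at Tle1 and 0 at Notch1, Ihh and Tle3. The Tle1 match lay 81 bases before the annotated transcript start, within the RefSeq gene and so outside the printed Tle1 sequence. These are matches of letters in a short window and not measured binding sites.

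Notch1, the receptor, lay in 1 up region at chromosome 2, 26475001 to 26503500 (mm10). The authors' deposited table gave its representative window a 2.27-fold change (1.18 on the log2 scale, FDR 3.85e-05), and 150 of its 152 windows were counted as up. The region covered 28.5 kb, or 62.1%, of the 45.9 kb RefSeq gene. It lay wholly inside the gene, from 322 bases after the start to 28.8 kb after it, and so ended short of the Notch1 sequence printed above. The authors' deposited table labels it as promoter and exon. On the RefSeq annotation it is the 5′ part of the gene body without the start itself, and the change at the start was not analysed here. The microRNA gene Mir6996 lies in Notch1 beyond the region's 3′ edge, at a distance of 4882 bases in the authors' deposited table. The noncoding gene Gm35978 begins 426 bases beyond the other edge and is not named there. No other listed region lay within 1 Mb. The nearest were an up region at Grin1, a glutamate receptor gene, 1166 kb to the left, and one at Ciz1 and Dnm1, 5845 kb to the right.

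Ihh, the ligand, had the largest change of the 7 regions. The authors' deposited table gave its region, on chromosome 1 from 74945251 to 74959000, a 2.59-fold change (1.37 on the log2 scale, FDR 4.38e-08). It ranked 9th among the 258 up regions by size of change. Windows counted as up were 53 of 69, a lower share (76.8%) than at Notch1 (98.7%), and the other 16 were in neither count. The rule for counting windows is not given, so a window outside the count need not be unchanged. The region was 13.75 kb wide and covered the whole 6.36 kb gene, from 7.33 kb before its start to just past its end. It therefore included the CpG-rich Ihh sequence printed above. It stopped 8.35 kb short of Nhej1, a DNA repair gene whose introns are known to hold Ihh enhancers, and 9.62 kb short of Cfap65 on the other side. Mir375, a microRNA gene of endocrine cells, and Fev, a transcription factor gene of serotonin-producing cells, lay 44.5 and 59.8 kb away, and no listed region lay at either. The nearest listed region was that of Vil1, the villin gene, 532.2 kb away. It was also up, and the authors' deposited table puts it at 1.56 on the log2 scale.

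**Figure D2:**
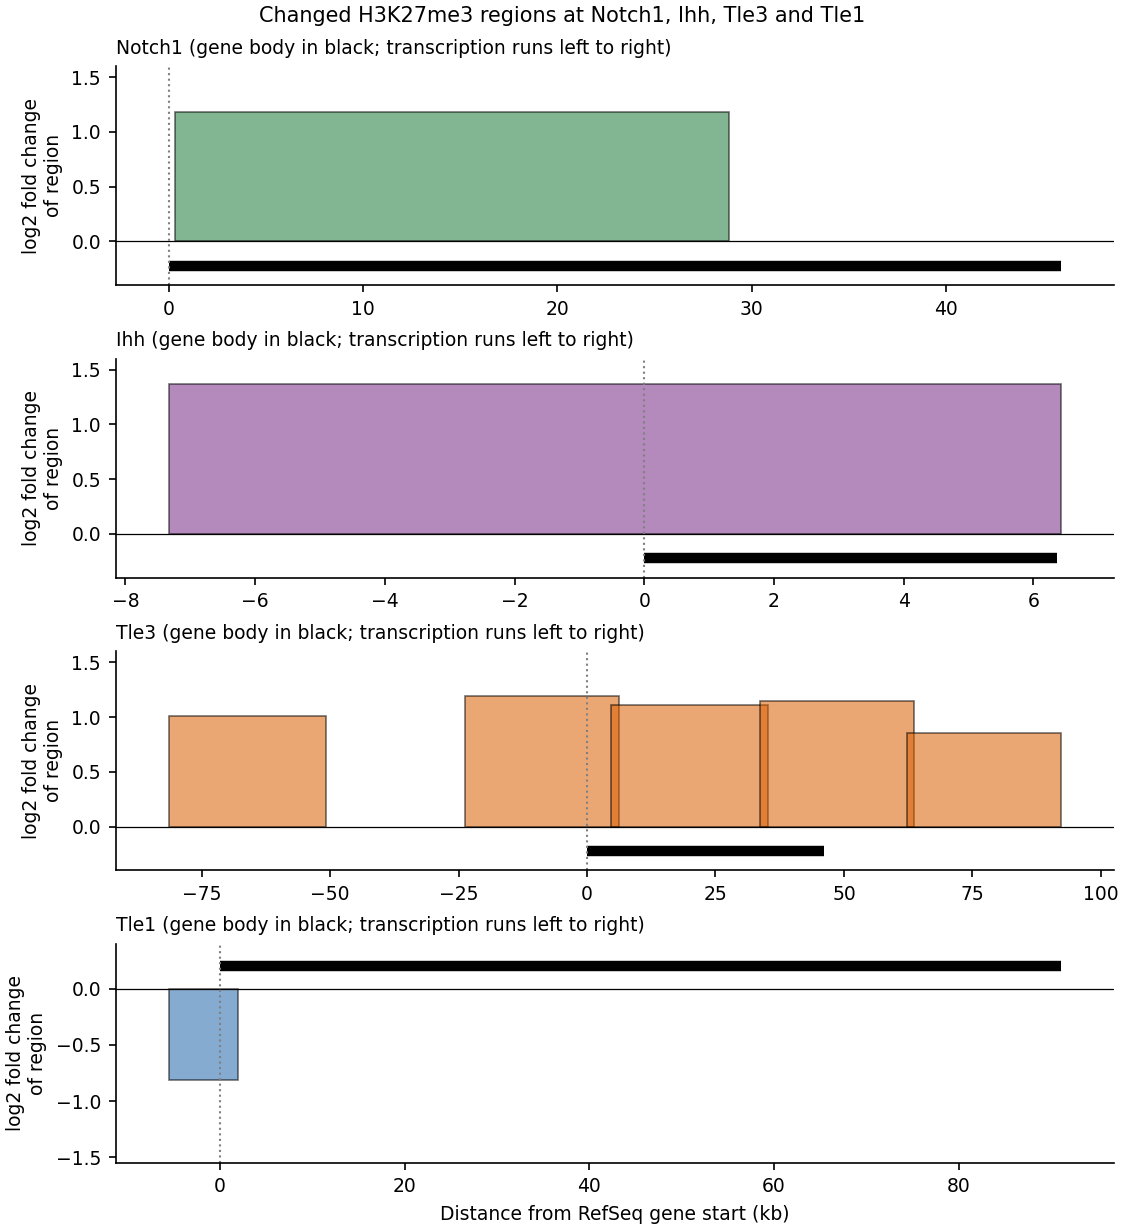
Changed regions at Notch1, Ihh, Tle3 and Tle1, with distance from the RefSeq gene start in kb on the x axis (each panel has its own scale) and the log2 fold change of each region's representative window, from the authors' deposited table, on the y axis. Each box spans 1 region and the black bar is the gene body; the Notch1 box starts 322 bases inside the gene, the Ihh box spans the gene and 7.33 kb before it, 4 of the 5 Tle3 boxes overlap in a chain, and the Tle1 box points down at the gene's start.

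Tle3, the corepressor, lay among 5 up regions in a row, between positions 61291001 and 61464500 of chromosome 9. Regions 1 to 3 name Tle3 and together covered the whole 46.2 kb gene. The authors' deposited table gave region 1 (61348501 to 61378500) a 2.29-fold change, or 1.19 on the log2 scale, at an FDR of 3.18e-05. It held the gene's start and 23.8 kb before it, the printed Tle3 sequence included. The RefSeq noncoding gene Gm34157 lies wholly inside region 1, as do 228 bases of the noncoding gene Gm39349. The authors' deposited table names neither there. For region 2 (61377001 to 61407500) the authors' deposited table has 1.11 on the log2 scale (FDR 5.40e-04), and for region 3 (61406001 to 61436000) it has 1.15 (FDR 1.67e-04). The 3 values span less than 0.1 on the log2 scale, but they carry no error, so their order says nothing. Regions 2 and 3 are labelled as promoter too, although the RefSeq gene start lies in region 1 alone.

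Beyond the gene's 3′ end the run continued with a region to which the authors' deposited table assigns no gene, at 61434501 to 61464500. It was 1.81-fold up there (0.86 on the log2 scale, FDR 0.0418). The RefSeq noncoding gene Gm34322 lies wholly inside it. Neighbouring regions from region 1 to this one overlapped by 1500 bases each, so that the 4 formed 1 unbroken stretch of 116 kb. The listed regions are at most 31500 bases wide, and the 4 were each 30000 or 30500 bases wide.

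The 5th region, 27 kb before region 1 at 61291001 to 61321500, held the start of the noncoding gene B930092H01Rik. The authors' deposited table has 1.01 on the log2 scale for its representative window, at an FDR of 0.0315. Here alone of the 7 the authors' deposited table gives the best window a smaller change (0.90) than the representative one, as it does for 31 of the 258 up regions. RefSeq places the noncoding genes Gm51683 and part of Gm34264 in this region as well. The B930092H01Rik promoter window had a CpG ratio of 0.189, below the median promoter and far below the 0.992 of Tle3. In the 27 kb between this region and region 1 no changed region was listed.

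By window counts, the middle of the Tle3 gene had the highest share of up windows in the run. The authors' deposited table counts as up 122 of 169 windows in region 1, 166 of 173 in region 2 and 147 of 169 in region 3. Outside the gene 121 of 171 were up in the downstream region and 138 of 173 in the upstream one. Over the 5 regions 694 of 855 windows were counted as up and 0 as down. Neighbouring regions overlap in position, and whether they share windows is not given, so these need not be independent counts. Over all 258 up regions the median share of up windows was 72.2%, and 47 regions had every window up. Region 1 (72.2%) and the downstream region (70.8%) were near that median. The upstream region (79.8%), region 3 (87.0%) and region 2 (96.0%) were above it.

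**Figure D3:**
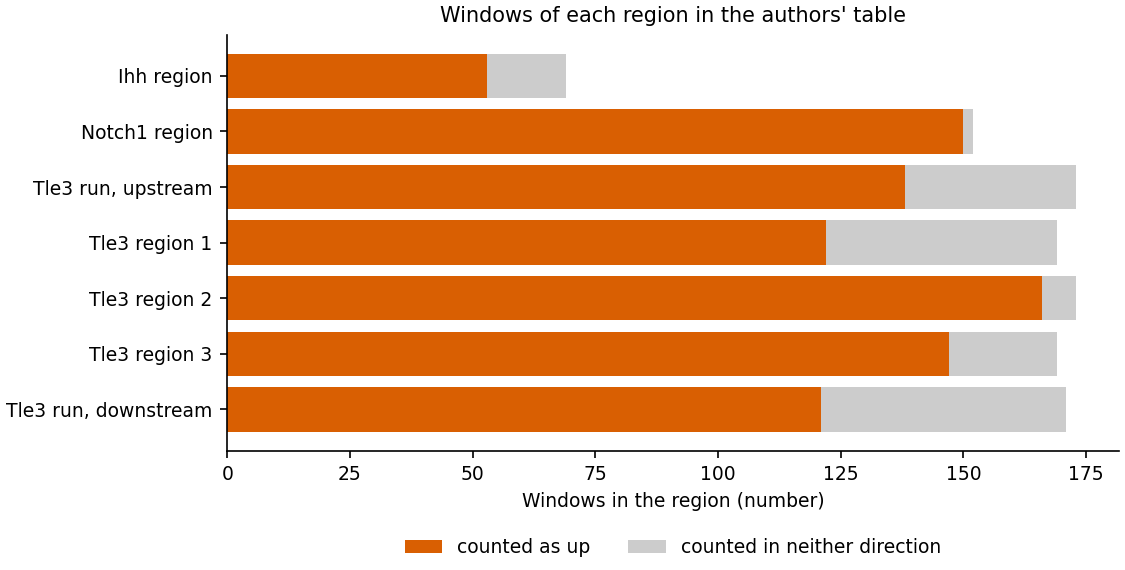
Number of windows per region in the authors' deposited table, counted as up (orange) or in neither direction (grey). No window of the 7 regions was counted as down, and the up windows run from 121 of 171 in the region downstream of Tle3 to 150 of 152 at Notch1.

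The Tle3 run covered more sequence than any other run in the table. When listed regions no more than 100 kb apart were joined, the 378 regions formed 299 runs, of which 243 were single regions and 3 held 5. The Tle3 run covered 146.5 kb, followed by runs at Sulf2, which encodes a heparan sulfate sulfatase (133 kb), and at Epb41l1 (97.25 kb), against a median of 13.75 kb. The Notch1 region ranked 52nd and the Ihh region 150th. Tle3 remained first at 116 kb when only overlapping or abutting regions were joined, by 0.5 kb over the next run (115.5 kb), and at 87.5 kb when only regions at FDR 0.01 were used. The nearest listed regions outside the run were at Paqr5, a membrane progestin receptor gene 498 kb to the right and at Nr2e3, a nuclear receptor gene 1338 kb to the left. The authors' deposited table has both as up, at 1.06 and 0.88 on the log2 scale.

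**Figure D4:**
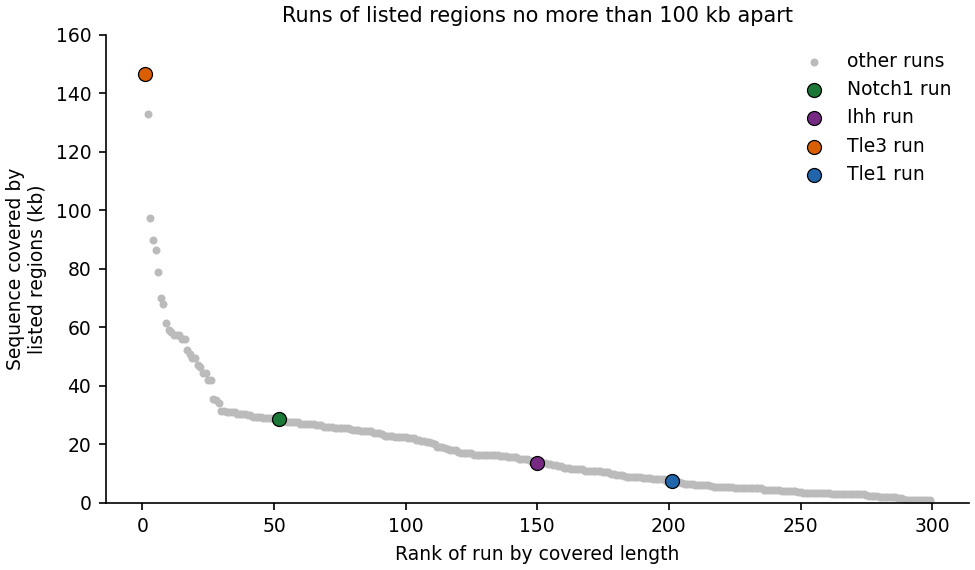
Sequence covered by each of the 299 runs of listed regions, in kb, ordered by rank. Coloured points mark the runs at Tle3 (146.5 kb, rank 1), Notch1 (28.5 kb, rank 52), Ihh (13.75 kb, rank 150) and Tle1 (7.5 kb, rank 201), and grey points are the other runs.

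Of 58963 regions tested, a number implied by the table's p-values and FDR values, 0.641% are listed as changed, 0.438% as up and 0.204% as down. At FDR 0.01 the shares are 0.187%, 0.161% and 0.0254%, and 5 of the 7 regions are left. All 7 regions at Notch1, Ihh and Tle3 are up, and since the table was used to choose them this count is no result. The 7 log2 fold changes ran from 0.86 to 1.37 in the authors' deposited table, with a median of 1.15, beside a median of 0.96 and an interquartile range of 0.89 to 1.08 over all 258 up regions. Ranked by change among these, Tle3 region 1 was 22nd, Notch1 24th, Tle3 region 3 33rd, Tle3 region 2 47th, the upstream region 94th and the downstream one 227th. The neighbours of Ihh in this order were regions at Slc6a20a (1.37) and the Serpina3 genes (1.35) in the authors' deposited table. Those next to Notch1 were a region at Gm2115 (1.19) and one on the X chromosome with no gene (1.18), and Tle3 region 1 stood between a region at Gse1 (1.21) and that at Gm2115. The neighbours of regions 2 and 3 were at Edn2 and Slc14a1 (1.11 each) and at Paqr5 (1.15) and Gse1 (1.14), also from the authors' deposited table. Up windows alone, with 0 down, were a feature of 257 of the 258 up regions and so do not set these loci apart.

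**Figure D5:**
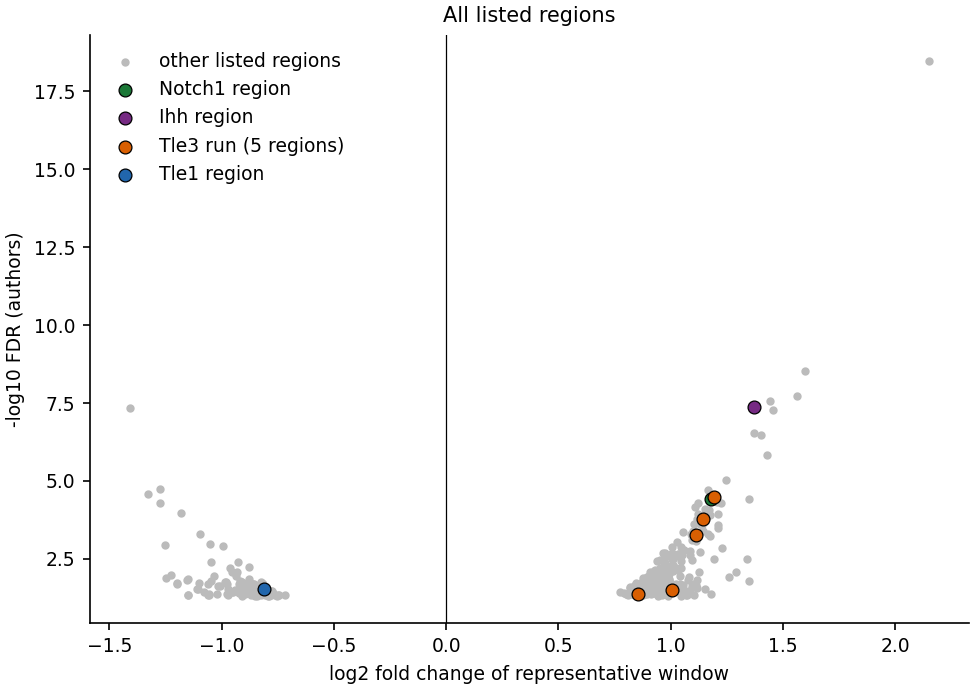
Every listed region by the log2 fold change of its representative window (x axis) and −log10 of its FDR (y axis), both from the authors' deposited table. The Ihh region (1.37) lies among the upper up regions, Notch1 and Tle3 regions 1 to 3 lie between 1.11 and 1.19, the other Tle3 run regions lie low at FDR 0.0315 and 0.0418, and Tle1 is among the down regions at -0.81.

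Within the Groucho family a second member changed, in the other direction. Tle1, a corepressor paralogous to Tle3, was down between 72199001 and 72206500 of chromosome 4. The authors' deposited table gave this region a log2 change of -0.81, or 0.57-fold, at an FDR of 0.0292. Windows counted as down were 24 of 35, and 0 were up. The change was placed differently in the gene too. At Tle1 it spanned the start, from 5.51 kb before it to 1.99 kb after it, and covered 2.18% of the 91.05 kb gene, against the whole gene at Tle3. Both gene starts are CpG-rich, as the printed sequences show. Each of the 2 directions rests on the authors' own test of that region, and the difference between the genes was not tested. The Tle1 region ranked 97th of 120 down regions by size of change. No listed region was assigned to the other 4 genes of the family, Tle2, Tle4, Tle5 and Tle6. Of all protein-coding genes 0.913% lay at an up region and 0.397% at a down region. Tle3 was chosen because it is listed, so that the count of 2 in 6 says nothing of the family.

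Of all protein-coding RefSeq genes, 1.31% lay at a listed region in either direction. Among 12 factors that recruit Groucho proteins, Runx1 was the only one at such a region. Its region, on chromosome 16 from 92620501 to 92621750, was intronic, with 2 windows, both up. The authors' deposited table has it at 0.98 on the log2 scale (FDR 0.0382). It lay 204 kb into the gene. No listed region was assigned to the TCF/LEF genes Tcf7, Tcf7l1, Tcf7l2 and Lef1, to the Notch target and partner Hes1, or to Runx2, Runx3, Foxa2, Six3, Hesx1 and Nkx2-2.

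By the rule used for the gene lists (named as overlapping a region or within 5 kb of it), 200 of 21900 protein-coding RefSeq genes (0.913%) were placed at an up region, and 87 (0.397%) at one that was down. Among 42 Notch pathway genes 1 lay at an up region and 0 at a down region. The 1 was Notch1, which was chosen because it is listed, so that the count says nothing of the pathway. The receptors Notch2, Notch3 and Notch4 had none. Neither did any of the 5 ligands (Dll1, Dll3, Dll4, Jag1 and Jag2), 11 genes of ligand and receptor processing, 9 modifiers and inhibitors, 4 genes of the RBPJ and Mastermind complex or 9 targets, which included Hes1, the secretory fate gene Atoh1 and the stem cell gene Olfm4. One further gene of the list lay within 100 kb of a listed region on the RefSeq annotation. This was Neurl1a, a ubiquitin ligase gene, 25.56 kb from an up region at Sh3pxd2a, which the authors' deposited table has at 0.95 (log2 scale, FDR 0.0429). Nrarp, a feedback inhibitor of Notch signalling, was 103.7 kb from the Grin1 region.

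Of 22 hedgehog genes Ihh was the only one at a listed region. The other ligands Shh and Dhh had none. The same held for the 3 genes of ligand processing and release, the 7 receptors, coreceptors and inhibitors that include Ptch1 and Smo, the 5 Gli factors and regulators, and 4 targets in gut mesenchyme (Foxf1, Foxf2, Foxl1 and Bmp4). None of these 21 lay within 100 kb of a listed region. Over the 81 genes of the 3 lists, 4 (4.94%) lay at up regions and 1 at a down region, beside 0.913% and 0.397% of all protein-coding genes. Since 3 of the 4 are the genes chosen from the table, nothing is read from the difference. At FDR 0.01 Notch1, Ihh and Tle3 were left, and Tle1 and Runx1 were not. Because only changed regions are listed, a gene without one may have been unchanged, below the threshold or without tested windows.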

How the data were processed

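H3K27me3 chromatin of 4 control and 4 DKO samples was compared by the authors. Per the labels' protocols, formaldehyde fixation came before micrococcal nuclease digestion. The submitters' processing notes name mm10, Bowtie 0.12.7, SICER 1.0.3, SAMtools 1.11, Picard 1.141, FastQC 0.10.1 and edgeR (no version). These notes carry no order or settings. The name of the deposited table also holds csaw, which is not among the tools listed above. Per the file headers, the deposited table gives each region's p-value and FDR, its log2 fold change by the representative and best window, and counts of windows, not reads. Nothing per sample was analysed (0 such columns), so depth is unknown and the test planned for counts per sample was not run.

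Rows hold unquoted commas, so all cells from the annotation on were read. A gene counted as at a region if named as overlapping or within 5 kb. P, E and I were taken to mean promoter, exon and intron. Recomputing FDR by the Benjamini-Hochberg method gave 58963 tests (largest relative difference 5.8e-15), a step tested on simulated data. All 81 list genes matched RefSeq symbols of GRCm38.p6. Strand of RefSeq promoters was checked on 1676 overlapping pairs of opposite strand, of which 1676 were reverse complements. The genes named are the members, genes of their runs, list genes at listed regions and the nearest regions in position and rank; flanking genes were added after their positions were seen. Members and lists were chosen with earlier results of these data known. Python 3.11.15, NumPy 2.4.6 and matplotlib 3.10.9 were used.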

Additional observations from a re-analysis of the deposited data

How the results depend on the processing

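The 28 values recomputed with other choices comprised 15 that held (the same sign and side of the FDR limit, or a count within 1.5 times), 2 past the limit no longer, 2 counts that moved by more than 1.5 times, and 0 that reversed. The remaining 9, which are 7 window shares and 2 lengths with no known error, differed from the reported value. At FDR 0.01 the regions flanking Tle3 were lost, which the authors' deposited table has at 1.01 (FDR 0.0315) upstream and 0.86 (FDR 0.0418) downstream on the log2 scale. The listed genes at changed regions fell from 5 to 3. Merging overlapping regions joined the 7 regions into 4 stretches, with none lost. The Tle3 run of 146.5 kb measured 116 kb as its overlapping part alone, and 87.5 kb at FDR 0.01. These 2 lengths were chosen after seeing the data. As a share of windows counted in either direction, up windows were 100% in each of the 7 regions. The smaller numbers follow from fewer regions by construction. Most of the values that held were also nearly fixed in advance. The best-window checks reused each region's own FDR, and in 5 of the 7 regions the best window had the same change as the representative one. The checks of fold change at FDR 0.01 repeated the same log2 fold change. The tally is therefore no measure of how robust the changes are.

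No paired analysis was possible because the table holds no column per sample. For the same reason leaving out replicates, another normalization and a low-count filter were not run, and no depth limit is given.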
